A study of Mus musculus with 24 samples.

Results

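Macrophages and monocytes were followed in mouse melanomas through 10 genes that these cells are known for, Csf1r, Cd68, Adgre1, C1qa, C1qb, C1qc, Mrc1, Cd163, Cd14 and Itgam, each matched by its symbol. All 10 were among the 24421 genes of the count table, and all 10 were among the 17214 genes with enough reads to be tested. RNA was sequenced from 24 whole melanomas of TN mice, which are C57BL/6 mice that carry a tamoxifen-inducible Cre driven by the melanocyte promoter of tyrosinase (Tyr::CreERT2) and a conditional mutant Nras at its own locus. All received 4-hydroxytamoxifen on the skin at 20 mM on postnatal days 1 and 2. The 4 groups of 6 tumours were homozygous at codon 61 of NRAS for histidine (TN61H/H), leucine (TN61L/L), lysine (TN61K/K) or arginine (TN61R/R). Histidine is a weak driver of melanoma in these mice and the other amino acids are strong drivers. Ages at collection and the ultraviolet exposure of each mouse are not in the labels. No tumour-free skin was analysed here, so each genotype could be set only against another genotype. The Cre acts in melanocytes, whereas the 10 genes are known from the host's immune cells, which the ground tumour tissue also contained.

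Macrophages arise from embryonic precursors or from blood monocytes, and depend on signalling through the receptor CSF1R. In skin tumours they engulf dying cells and debris, release complement, and can either restrain or support tumour growth. The genes fall into 4 roles here. Csf1r, Cd68 and Adgre1 are identity genes, C1qa, C1qb and C1qc encode the chains of complement C1q, Mrc1 and Cd163 encode scavenger receptors, and Cd14 and Itgam encode surface proteins that monocytes and neutrophils also carry. In RNA of whole tissue, fewer macrophages and less RNA per macrophage cannot be told apart.

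The C1q genes lie side by side within 18700 bases of chromosome 4 (mm10), C1qb from 136880145 to 136886177, C1qc from 136889802 to 136892914 and C1qa from 136895916 to 136898844, all on the minus strand. Promoter sequence from RefSeq (GRCm38.p6) was on hand for 6 of the 10 genes, C1qb, C1qc, Cd163, Cd68, Itgam and Mrc1. Shown are the 250 bases before the start site of the 4 of these that passed a test between genotypes, 5′ to 3′ on the gene's strand. Capitals mark GAGGAA on either strand, the core letters read by PU.1, the myeloid transcription factor encoded by Spi1.
C1qb promoter (chr4:136886201-136886450, minus strand): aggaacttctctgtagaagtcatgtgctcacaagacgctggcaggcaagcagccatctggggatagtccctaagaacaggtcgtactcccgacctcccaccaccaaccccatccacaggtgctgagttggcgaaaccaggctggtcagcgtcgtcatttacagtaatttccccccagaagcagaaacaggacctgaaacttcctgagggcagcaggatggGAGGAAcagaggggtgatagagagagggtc
C1qc promoter (chr4:136892915-136893164, minus strand): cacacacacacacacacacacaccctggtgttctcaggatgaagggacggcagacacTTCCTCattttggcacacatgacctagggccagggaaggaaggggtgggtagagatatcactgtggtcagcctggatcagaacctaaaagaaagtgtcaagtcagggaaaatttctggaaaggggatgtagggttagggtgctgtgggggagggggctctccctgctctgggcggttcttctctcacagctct
Itgam promoter (chr7:128062390-128062639, plus strand): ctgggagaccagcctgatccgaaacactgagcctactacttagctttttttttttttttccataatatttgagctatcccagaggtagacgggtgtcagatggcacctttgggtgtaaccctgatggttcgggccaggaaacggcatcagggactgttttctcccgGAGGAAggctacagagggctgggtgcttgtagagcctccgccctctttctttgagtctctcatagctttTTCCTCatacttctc
Mrc1 promoter (chr2:14229164-14229413, plus strand): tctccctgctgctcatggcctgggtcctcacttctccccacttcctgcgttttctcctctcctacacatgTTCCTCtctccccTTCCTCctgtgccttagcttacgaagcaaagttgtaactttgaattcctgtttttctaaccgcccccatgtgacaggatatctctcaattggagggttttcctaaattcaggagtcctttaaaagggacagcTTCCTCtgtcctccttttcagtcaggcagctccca
GAGGAA began 30 bases before the start site of C1qb on the gene's strand. C1qc held it on the opposite strand, Itgam on both strands, and Mrc1 at 3 positions on the opposite strand. Cd68 also had 1 match, and Cd163 had none. Of all 32851 promoters of this length, 23.3% held these letters on either strand. Among the other motifs searched on both strands, TTNCNNAA of the C/EBP factors was found in 5 of the 6 promoters against 36.8% of all, and overlaps with GAGGAA were not counted apart. TGANTCA of AP-1 was found in 1 against 6.75%, and CACGTG of the MITF and TFE family in none against 6.02%. A match describes letters only, and binding was not measured.

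Libraries held 31.9 M to 43.8 M counted reads, and no library of a genotype repeated another (lowest chi-square per degree of freedom between libraries of 1 genotype, 68.3). The melanocyte markers, a list of 7 genes, were read in every group, with summed levels of 514 to 1107 CPM (reads per 1 M reads of the library) in TN61H/H, 325 to 539 in TN61L/L, 157 to 448 in TN61K/K and 282 to 699.5 in TN61R/R. Most of the 7 genes did not follow these sums between genotypes, as given below with the other markers. TN61K/K replicate 3 stood apart. It had the lowest melanocyte sum of all 24 tumours, at 157 CPM, and the highest sum of the 7 pan-leukocyte markers, at 1222 CPM. Column names came in 2 styles, and the 6 libraries named without a separator (TN61H/H replicate 6, TN61L/L replicate 6, TN61K/K replicates 1, 3 and 6, TN61R/R replicate 3) were treated as a possible batch. The labels do not say what the styles mean. Results that rest on replicate 3 or on this naming are given with and without these libraries.

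The first question was how abundant each gene was. The 10 genes together took between 0.0513% and 0.447% of a tumour's reads, with the highest share in TN61K/K replicate 3. The mean share was 0.0716% in TN61H/H, 0.0949% in TN61L/L, 0.174% in TN61K/K and 0.114% in TN61R/R. Corrected for gene length, as reads per kilobase of gene and per 1 M reads, the median over the 24 tumours was 111 for C1qb, 97.9 for C1qa and 83.5 for C1qc. Mrc1 followed at 46.5 and Csf1r at 46.4, and these neighbours in the order are within the spread between tumours. Cd68 stood at 22.6, Adgre1 at 18.5, Itgam at 13.1, Cd163 at 9.66 and Cd14 at 6.92 on the same scale.

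Mean levels ran in a shared order with all tumours in. In 9 of the 10 genes the mean CPM was highest in TN61K/K, then TN61R/R, then TN61L/L, and lowest in TN61H/H, an order found in 10.1% of all tested genes. Cd163 was the exception, with TN61L/L above TN61R/R. The order held in 6 of the 10 without TN61K/K replicate 3 (8.53% of all genes), since Cd68, C1qb and Itgam then had lower means in TN61K/K than in TN61R/R. Within the 18 libraries named with a separator it held in 3, Cd68, Csf1r and Mrc1 (7.85% of all genes). Since the 10 genes vary together between tumours, they are not separate observations of an order. The plot of levels by genotype shows how far the groups overlapped.

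**Figure D1:**
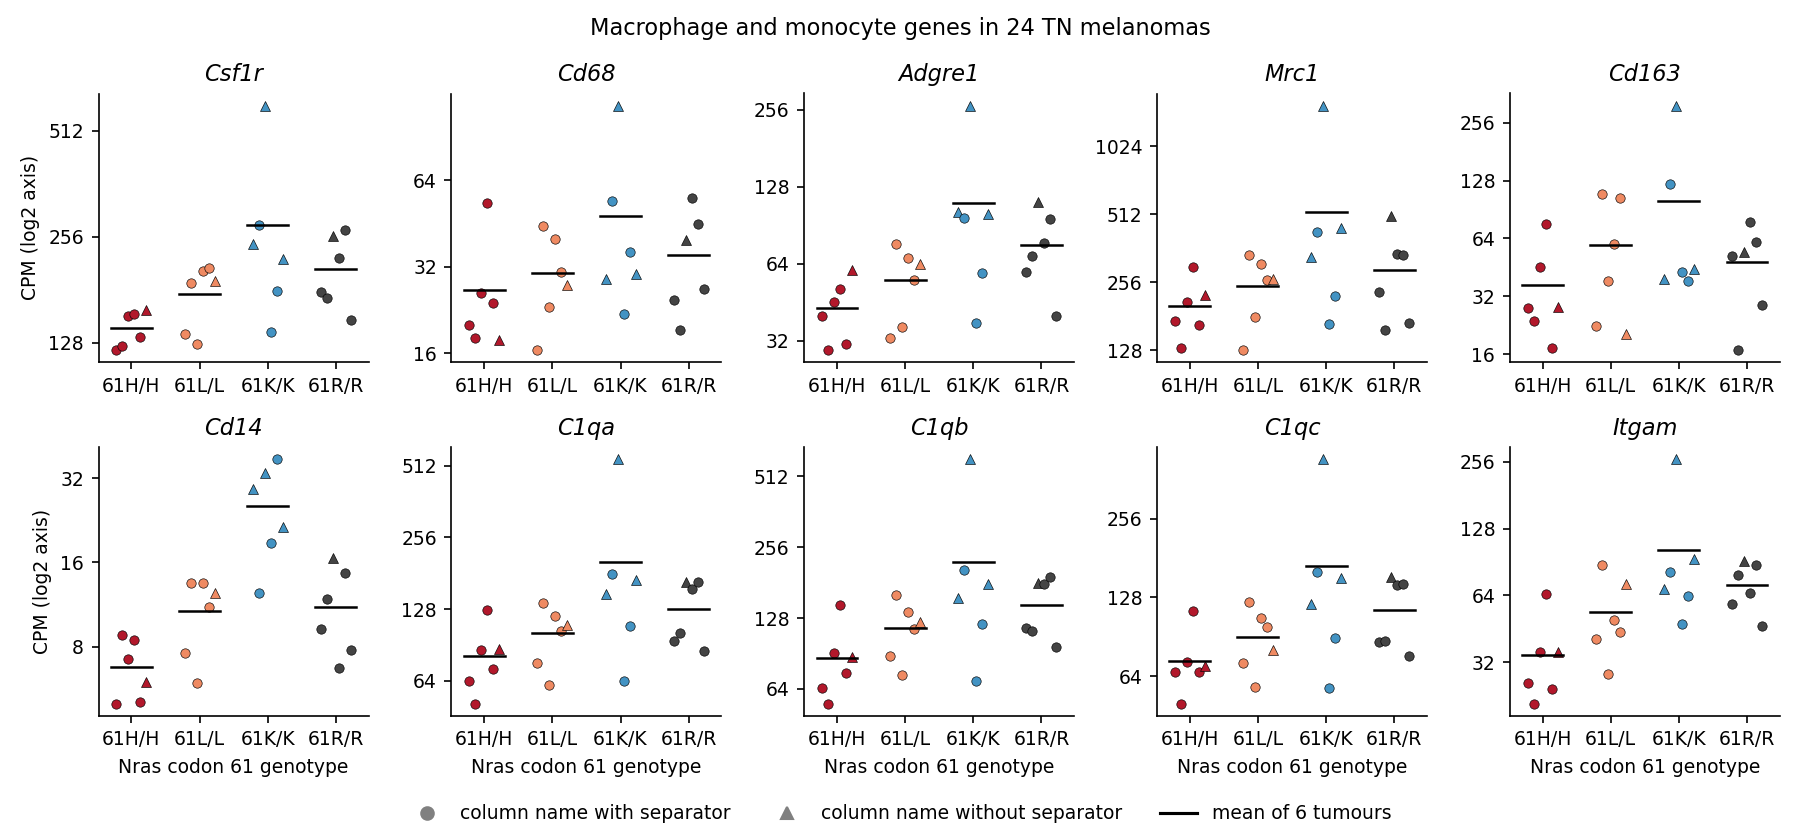
CPM of the 10 macrophage and monocyte genes (log2 axis) in each of 24 melanomas by genotype. Each point is 1 tumour, triangles are libraries whose column name has no separator, and lines are means of 6 tumours. Only for Cd14 do all 6 TN61K/K tumours (12.4 to 37.3 CPM) lie above all 6 TN61H/H tumours (5.02 to 8.81 CPM), and in the other genes a single TN61K/K tumour, replicate 3, lies far above the rest.

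The identity genes were read at moderate levels in every tumour. Csf1r (chromosome 18, 61105572 to 61131139, plus strand), the receptor for CSF1 and IL-34 on which macrophages depend, ranged from 122 to 159 CPM in TN61H/H (median 143), from 127 to 209 in TN61L/L (median 191), from 138 to 603 in TN61K/K (median 233) and from 148 to 268 in TN61R/R (median 201). TN61H/H tumours formed the tightest group, with an SD of 16.2 CPM, and 5 of 6 TN61K/K tumours and 5 of 6 TN61R/R tumours lay above the highest of them. Cd68, a lysosomal membrane protein of phagocytes, ranged from 17.8 to 53.3 CPM in TN61H/H (median 21.9), from 16.4 to 44.3 in TN61L/L (median 29.1), from 21.9 to 116 in TN61K/K (median 33.1) and from 19.2 to 55.3 in TN61R/R (median 33.2). Its groups overlapped broadly, and the medians of TN61K/K and TN61R/R were nearly equal. Adgre1, which encodes the surface antigen F4/80, ranged from 29.4 to 60.6 CPM in TN61H/H (median 42.6), from 32.8 to 76.7 in TN61L/L (median 59.4), from 37.7 to 266 in TN61K/K (median 98.3) and from 39.9 to 111.5 in TN61R/R (median 73.2).

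Complement C1q starts the classical complement pathway, and in tissues its chains are made mostly by macrophages. C1qb, one of its 3 chains, ranged from 55.4 to 146 CPM in TN61H/H (median 80.8), from 73.6 to 161 in TN61L/L (median 119), from 69.1 to 606 in TN61K/K (median 167) and from 96.5 to 192 in TN61R/R (median 147). Mean levels of C1qa were 81.0 ± 26.2, 101 ± 27.8, 202 ± 173 and 128 ± 38.2 CPM in TN61H/H, TN61L/L, TN61K/K and TN61R/R (SD, n = 6 each). C1qc averaged 73.0 ± 21.2, 89.9 ± 24.04, 168 ± 135 and 115 ± 34.8 CPM in the same order of genotypes. The SD in TN61K/K was nearly as large as the mean for all 3 chains. Without replicate 3, the TN61K/K mean of C1qb was 146 ± 52.8 CPM (n = 5), beside 146 ± 42.0 CPM in TN61R/R.

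The scavenger receptors spanned wide ranges. Mrc1, the mannose receptor CD206, ranged from 131 to 299 CPM in TN61H/H (median 191), from 128 to 338 in TN61L/L (median 264), from 167 to 1547 in TN61K/K (median 379) and from 158 to 503 in TN61R/R (median 284). Cd163, which takes up haemoglobin bound to haptoglobin, ranged from 17.3 to 76.2 CPM in TN61H/H (median 28.0), from 20.3 to 109 in TN61L/L (median 49.1), from 38.6 to 314 in TN61K/K (median 43.4) and from 16.8 to 77.7 in TN61R/R (median 53.1). The highest tumour held 18.7 times the Cd163 of the lowest, the widest span of the 10 genes with all tumours in. It was 7.31 times without TN61K/K replicate 3, and Cd14 then had the widest span at 7.44 times. The TN61K/K median of Cd163 was below that of TN61R/R, although the means ran the other way.

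Cd14 (chromosome 18, 36725064 to 36726815, minus strand), a co-receptor that passes bacterial lipopolysaccharide to TLR4, was the least abundant of the 10 genes per length. Its CPM was 5.02, 8.81, 7.21, 8.43, 5.08 and 5.97 in TN61H/H replicates 1 to 6 and 7.60, 13.5, 5.94, 13.5, 11.1 and 12.5 in TN61L/L. The TN61K/K tumours stood at 29.3, 12.4, 33.3, 18.8, 37.3 and 21.4 CPM, and the TN61R/R tumours at 9.26, 11.9, 16.5, 6.72, 14.7 and 7.77 CPM. All TN61K/K tumours but replicate 2 lay above every tumour of the other genotypes. Itgam encodes CD11b, the alpha chain of the complement receptor CR3, found on neutrophils as well as on macrophages. It stood at 25.8, 20.8, 35.7, 64.8, 24.3 and 35.7 CPM in TN61H/H replicates 1 to 6, against 58.5, 79.0, 91.1, 65.3, 87.9 and 46.4 CPM in TN61R/R replicates 1 to 6. Only TN61H/H replicate 4 reached into the TN61R/R range.

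TN61H/H against TN61K/K, the weak driver against a strong one, was the comparison with the widest gaps. Here 8 of the 10 genes passed the test, all lower in TN61H/H, against a background of 9.36% of all genes called in either direction and 5.07% called lower. A gene passed at a Benjamini-Hochberg adjusted p under 0.05 over all tested genes, in the edgeR quasi-likelihood test of all 24 libraries. Cd14 averaged 6.75 ± 1.65 CPM in TN61H/H and 25.4 ± 9.46 CPM in TN61K/K (SD over 6 tumours each). Its log2 fold change was -1.91 ± 0.28 with its SE (adjusted p = 0.00343). Itgam averaged 34.5 ± 16.0 CPM in TN61H/H and 103 ± 80.0 CPM in TN61K/K, a log2 fold change of -1.58 ± 0.37 (adjusted p = 0.0130). Adgre1 followed at -1.36 ± 0.35 (adjusted p = 0.0204) and Csf1r at -0.97 ± 0.26 (adjusted p = 0.0216). The 3 C1q chains lay at -1.37 for C1qb, -1.32 for C1qa and -1.20 for C1qc, with adjusted p of 0.0254, 0.0274 and 0.0327, and Mrc1 at -1.38 ± 0.42 (adjusted p = 0.0426). Cd163, at -1.46 ± 0.57 (adjusted p = 0.105), and Cd68, at -0.85 ± 0.38 (adjusted p = 0.153), did not pass. All 10 had an unadjusted p under 0.05, against 26.3% of all genes. The median of the 10 log2 fold changes was -1.37, against 0.01 over all genes.

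Much of this count rested on few libraries. Without TN61K/K replicate 3, 1 of the 10 genes still passed (Cd14, with 3.22% of all genes called) and the median was -0.72, with all 10 values still negative. Within the 18 libraries named with a separator, Cd14 alone passed again (log2 fold change -1.73, adjusted p = 0.0372), with 0.957% of all genes called, and the median was -0.59. The count was 2 without TN61H/H replicate 1 (4.07% of all genes called), 3 without replicate 2 (5.79%), 2 without replicate 5 (3.67%) and 10 without replicate 4 (13.3%). Mrc1 also missed without TN61H/H replicate 3 or 6 or TN61K/K replicate 2 (adjusted p 0.0635, 0.0522 and 0.0576), and C1qc without TN61H/H replicate 3 or TN61K/K replicate 2 (0.0521 and 0.0513). The count was 1 when only the 12 libraries of this comparison were fitted (2.72% of all genes called), 2 with the naming style as a covariate (8.46%), 4 with limma-voom (8.16%) and 9 with DESeq2 (14.3%). Cd14 passed under each of the 21 alternatives run, with values from -2.05 to -1.73 and adjusted p up to 0.0375. It was also the one gene of the 10 whose groups did not overlap, where 1.22% of all genes did not overlap and were lower in TN61H/H.

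**Figure D2:**
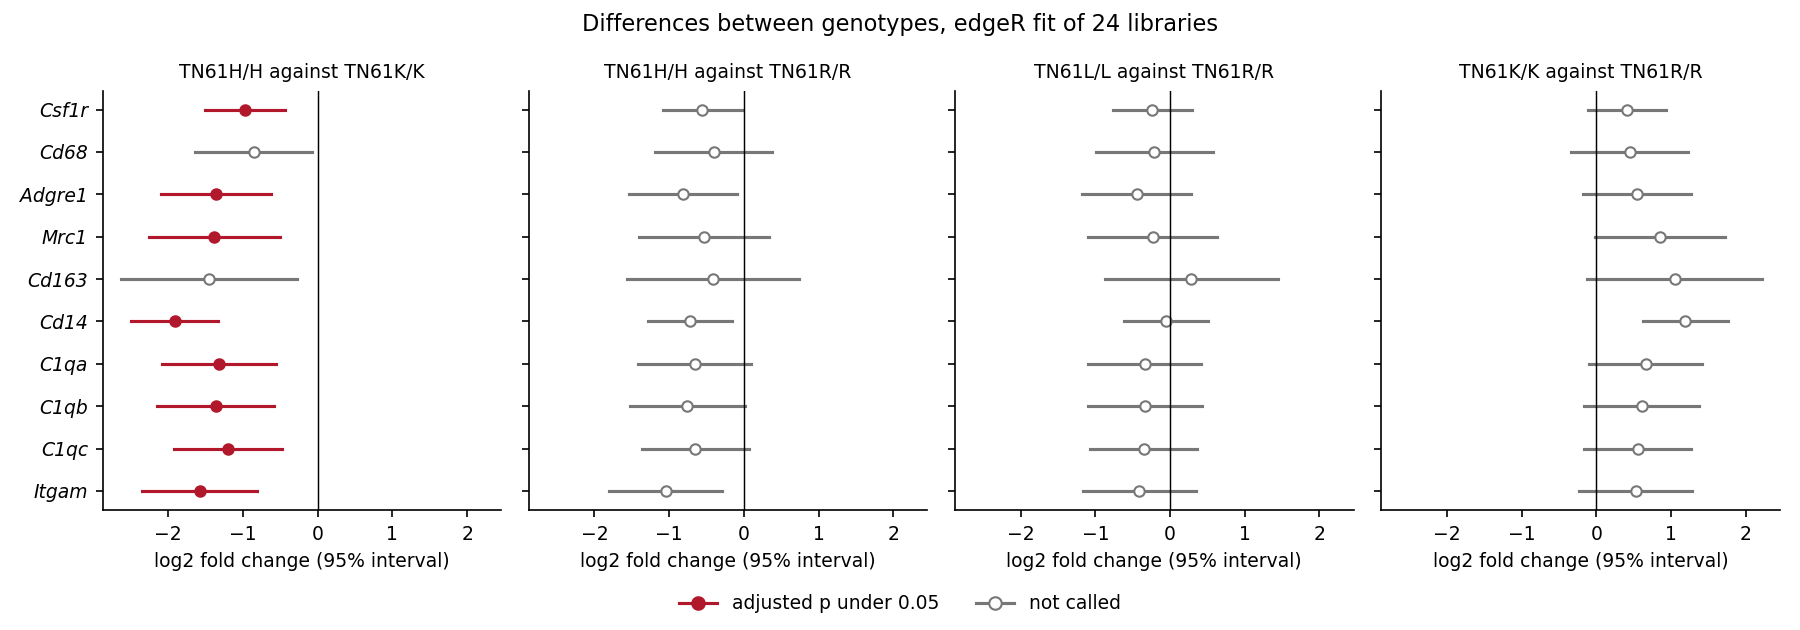
Log2 fold changes of the 10 genes with 95% intervals from the edgeR fit, in 4 comparisons that share the TN61H/H, TN61K/K or TN61R/R tumours. Filled red points passed at an adjusted p under 0.05. The 8 filled points are all in TN61H/H against TN61K/K, from -1.91 (Cd14) to -0.97 (Csf1r), and all intervals of TN61L/L against TN61R/R include 0.

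TN61H/H was also set against TN61R/R, the allele from which the others were made. None of the 10 genes passed, with 2.02% of all genes called. All 10 log2 fold changes were negative (median -0.66, against 0.01 over all genes) and 4 had an unadjusted p under 0.05, as did 15.8% of all genes. DESeq2 and limma-voom also called none of the 10, with 5.28% and 1.1% of all genes called. Itgam came nearest, with 34.5 ± 16.0 CPM in TN61H/H and 71.4 ± 17.6 CPM in TN61R/R. Its log2 fold change was -1.05 ± 0.37 (adjusted p = 0.137). Without TN61H/H replicate 4, the tumour with the highest Itgam of its group, it passed at -1.36 (adjusted p = 0.0340). The share of all genes called also rose there, to 6.3%. Cd14 came to -0.72 ± 0.27 (adjusted p = 0.180), Adgre1 to -0.82 ± 0.35 (0.246) and Csf1r to -0.56 ± 0.25 (0.280). Cd68, at -0.41 (95% interval -1.19 to 0.37), and Cd163, at -0.41 (-1.57 to 0.74), had the smallest values, and their intervals include 0.

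Among the strong drivers no gene of the 10 passed. In TN61K/K against TN61R/R, 0% of all genes were called, the 10 values were positive with a median of 0.58, and Cd14 alone had an unadjusted p under 0.05 (5.15% of all genes did). Cd14 averaged 25.4 ± 9.46 CPM in TN61K/K and 11.1 ± 3.91 CPM in TN61R/R. Its log2 fold change was 1.19 ± 0.28 (adjusted p = 0.774, from an unadjusted edgeR p of 0.000264). It stayed between 1.06 and 1.35 when each tumour was left out, and 5 of 6 TN61K/K tumours were above the highest TN61R/R tumour. The other 9 values did not hold their size. Within the 18 libraries named with a separator, a fit without TN61K/K replicates 1, 3 and 6 and without 1 tumour of each other genotype, the median of the 10 was -0.027. There Cd68 (0.12), Mrc1 (0.13) and Cd163 (0.52) stayed positive, and Csf1r, Adgre1, Itgam and the 3 C1q chains lay between -0.095 and -0.0093. Without TN61K/K replicate 3 alone, Cd68, C1qb and Itgam stood at -0.050, -0.0094 and -0.019.

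In TN61L/L against TN61R/R, again 0% of all genes were called, and none of the 10 reached an unadjusted p under 0.05 (5.55% of all genes did). The median was -0.28, 9 values were negative, and Cd163 was positive at 0.28 (95% interval -0.87 to 1.44). Cd14 came to -0.06 ± 0.27 (-0.62 to 0.51), with 10.7 ± 3.21 CPM in TN61L/L and 11.1 ± 3.91 CPM in TN61R/R. In TN61H/H against TN61L/L the background was 0% and none of the 10 was called, all 10 values were negative (median -0.34), and Cd14 alone had an unadjusted p under 0.05 (-0.66 ± 0.27, adjusted p = 0.378), as did 11.2% of all genes. In TN61L/L against TN61K/K the background was 0% as well, and none passed in edgeR. There 8 of the 10 had an unadjusted p under 0.05, against 8.09% of all genes, with a median of -0.94. That median ran from -1.14 to -0.37 when a tumour was left out, and was -0.21 within the 18 libraries named with a separator. DESeq2 called 1 of the 10, with 0.232% of all genes called.

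A test for any difference among the 4 genotypes followed. Cd14 was the only one of the 10 to pass in edgeR (adjusted p = 0.00502), against 2.72% of all genes. Itgam (adjusted p = 0.0656), Adgre1 (0.0871) and Csf1r (0.106) came next. Ptprc, the leukocyte gene CD45 and not one of the 10, passed in the same edgeR test (adjusted p = 0.0393). DESeq2 called 8 of the 10, against 8.66% of all genes. Within the 18 libraries named with a separator Cd14 did not pass (adjusted p = 0.107), where 0.0627% of all genes did.

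Levels moved together from tumour to tumour. Over the 24 tumours the correlation of log2 CPM between pairs of the 10 genes ran from 0.41 (Cd163 and Cd14) to 0.99 (C1qa and C1qb), with a median of 0.88 over 45 pairs. These are descriptions, since tumours share genotypes and tissue makeup. After each genotype's mean was removed the median was 0.85, and without TN61K/K replicate 3 it was 0.80. Pairs with Cd14 were among the lower values. The highest was 0.72 over the 24 tumours, where pairs without Cd14 began at 0.65, so the ranges overlapped. After the genotype means were removed they were apart, with pairs of Cd14 up to 0.51 and the other pairs from 0.61 upward. They overlapped without TN61K/K replicate 3, with pairs of Cd14 up to 0.65 and the other pairs from 0.46 upward. Within the 18 libraries named with a separator these limits were 0.57 and 0.56.

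**Figure D3:**
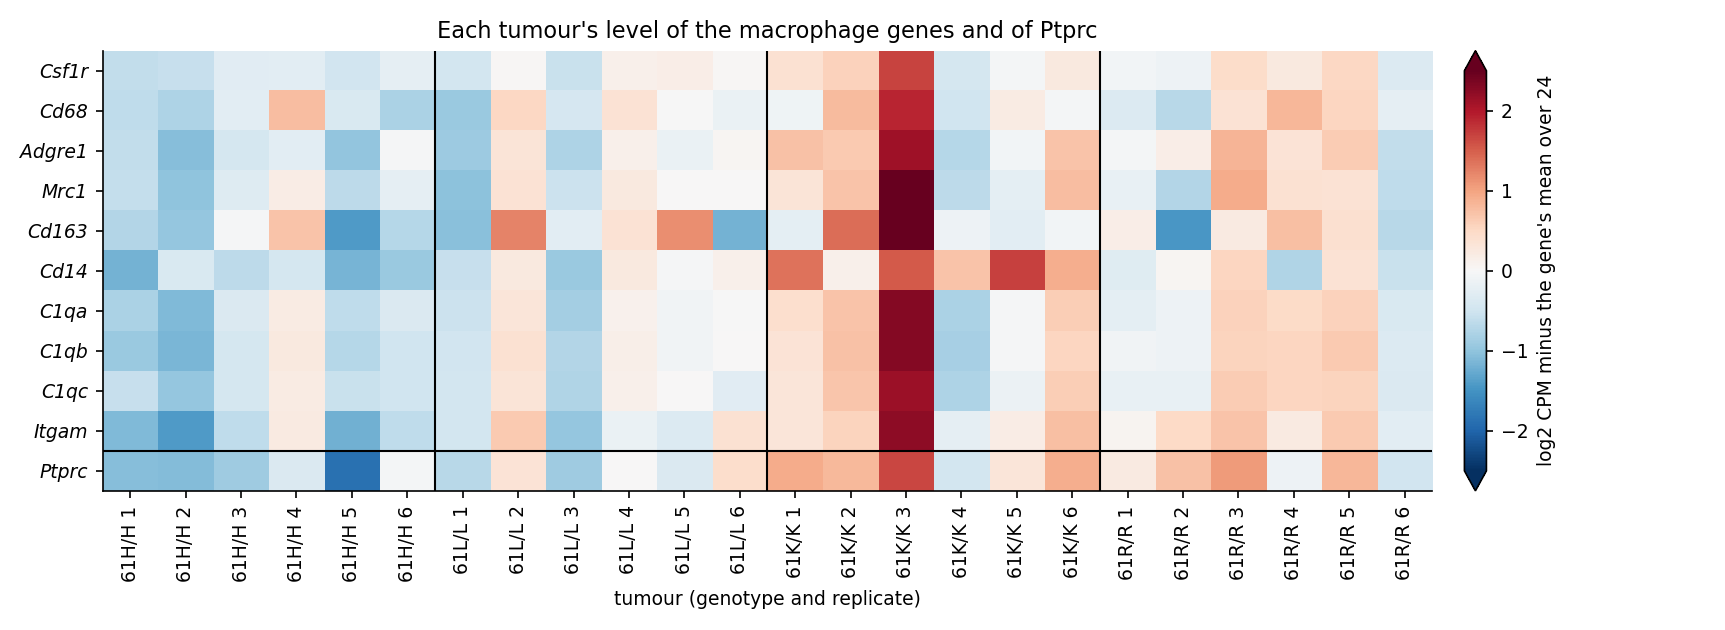
Log2 CPM of the 10 genes and of Ptprc, the leukocyte gene CD45, in each tumour, minus the gene's mean over 24 tumours (red higher, blue lower; colours end at ±2.5, which Mrc1 and Cd163 of TN61K/K replicate 3 exceed). Columns are tumours by genotype and replicate. TN61K/K replicate 3 is highest in 9 of the 10 genes, and in TN61K/K replicates 4 and 5 Cd14 is high while the other genes are near or below their means.

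TN61K/K replicate 3 was the highest of 24 tumours in 9 of the 10 genes, as in 15.4% of all genes. In the 10th, Cd14, TN61K/K replicate 5 was highest at 37.3 CPM. TN61K/K replicates 4 and 5 held 138 and 180 CPM of Csf1r, below or near the median of all tumours (180), but 18.8 and 37.3 CPM of Cd14. Keratinocyte markers, a list of 5 genes, also had their 2 highest sums here, 7434 and 8147 CPM, and the neutrophil markers summed to 49.5 and 105 CPM. The part of these cells in the Cd14 level was not tested.

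Ratios per gene length put numbers on this. Cd14 stood at 0.109 of Csf1r in TN61H/H, 0.138 in TN61L/L, 0.225 in TN61K/K and 0.121 in TN61R/R (geometric means of 6). The 4 highest ratios of the 24 were all in TN61K/K, at 0.280, 0.319, 0.483 and 0.225 in replicates 1, 4, 5 and 6. Replicates 2 and 3 stood at 0.105 and 0.129, among the other genotypes. Over Ptprc, Cd14 stood at 0.570 in TN61H/H, 0.548 in TN61L/L, 0.691 in TN61K/K and 0.382 in TN61R/R, where TN61R/R was the lowest. Csf1r over Ptprc was 5.22, 3.98, 3.07 and 3.15 in the same order of genotypes, highest in TN61H/H. The C1q chains behaved otherwise. The ratio of C1qa to C1qb stayed between 0.796 and 0.976 over all tumours, an SD of 0.07 on the log2 scale, against 0.63 for Cd14 over Csf1r, 0.35 for Mrc1 over Csf1r and 0.71 for Cd163 over Csf1r.

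**Figure D4:**
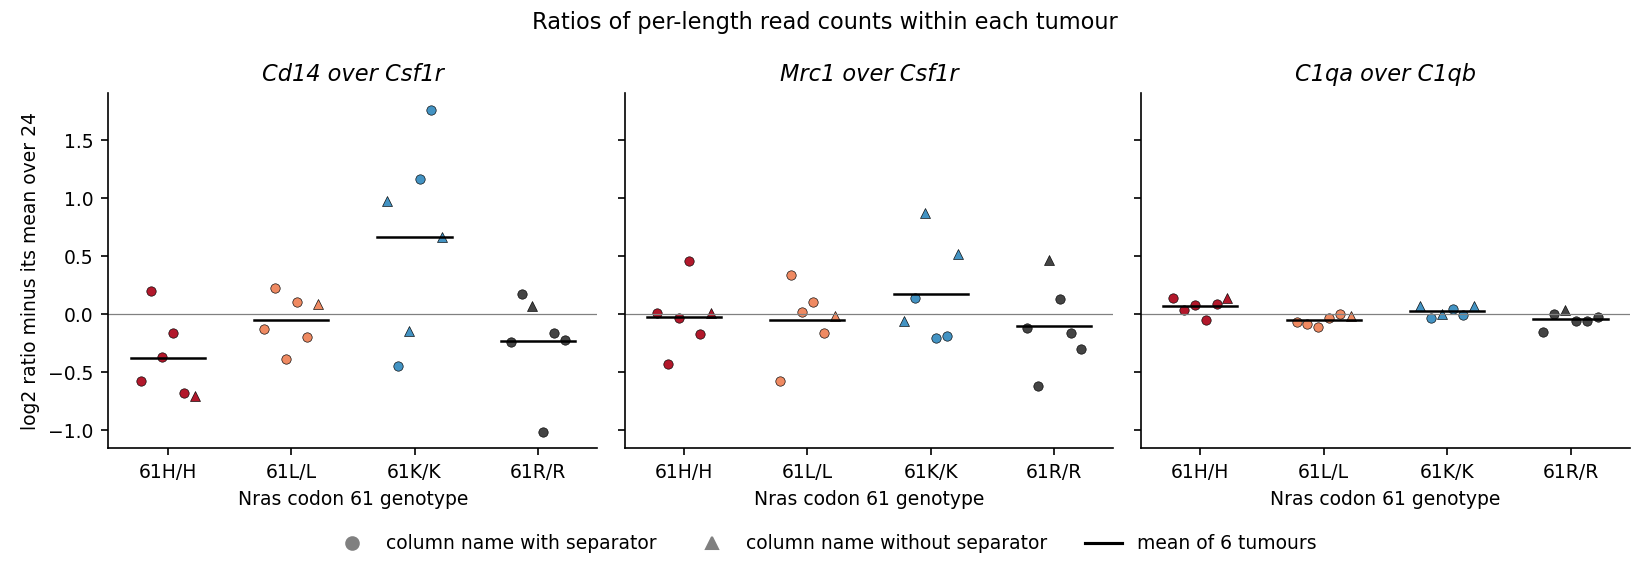
Log2 ratios of Cd14 to Csf1r, Mrc1 to Csf1r and C1qa to C1qb per gene length in each tumour, minus the mean over 24. Points are tumours by genotype, triangles are libraries whose column name has no separator, and lines are means of 6. The ratio of the C1q chains hardly moves (SD 0.07), while Cd14 over Csf1r is highest in 4 TN61K/K tumours.

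Other genes ran in parallel. The 5 genes whose log2 CPM was most like the 10 over the 24 tumours, by mean correlation, were Lyz2 (0.89), which encodes the lysozyme of phagocytes, Ncf1 (0.88), a subunit of the phagocyte oxidase, Alox5ap (0.88), needed for making leukotrienes, Tmem106a (0.88) and Fcgr3 (0.87), an Fc receptor for IgG. For Cd14 alone the nearest were Srgn (0.87), the proteoglycan serglycin of leukocyte granules, Samsn1 (0.87) and Anxa7 (0.84). Cd163 was nearest to Slc28a2 (0.95), a nucleoside transporter, and Pdgfc (0.93), a growth factor.

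Partners of the 10 genes and markers of other cell types were read from 22 lists, in TN61H/H against TN61K/K unless stated. Of 175 genes tested over all these lists, 61 were lower in TN61H/H and 1 higher (5.07% of all genes were lower). Without TN61K/K replicate 3, 21 were lower and 1 higher (1.81% of all genes were lower), and within the 18 libraries named with a separator 3 were lower (Il1b, Csf3r and Icam1) and 0 higher (0.376% of all genes were lower). Of 12 ligands and transcription factors of the CSF1R lineage, 5 were lower and none higher (median -1.11). Among them were Spi1 (-1.24 ± 0.31, adjusted p = 0.0172), Irf8 (-1.003), Runx1 (-1.10) and Csf2rb (-1.36 ± 0.23, adjusted p = 0.00402), the shared beta chain of the GM-CSF, IL-3 and IL-5 receptors. The ligands of CSF1R did not pass, with Csf1 at -0.48 ± 0.20 (adjusted p = 0.130) and Il34 at -0.01 ± 0.34 (adjusted p = 0.990). Without TN61K/K replicate 3, 2 of the list passed, Csf2rb among them. Irf8 and Csf2rb were the list's genes that were lower in TN61H/H than in TN61R/R as well (-0.99 and -1.05), where 0.761% of all genes were lower.

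All 6 listed partners of Itgam were lower (median -1.45), and 3 without TN61K/K replicate 3 (Itgal, Itgax and Icam1, median -1.44). Itgb2, the beta chain that pairs with CD11b, stood at 23.2 ± 11.9 CPM in TN61H/H and 58.1 ± 36.5 CPM in TN61K/K, a log2 fold change of -1.32 ± 0.35 (adjusted p = 0.0218). Itgal, the alpha chain of LFA-1, came to -1.57 ± 0.31 (adjusted p = 0.00623), and its ligand Icam1 to -1.51 ± 0.28 (adjusted p = 0.00592). Itgal, Itgax and Itgad were also lower in TN61H/H than in TN61R/R (-1.39, -1.45 and -2.83), the last at under 1 CPM in both.

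Of 8 genes of the endotoxin response around CD14, 4 were lower (median -0.69), and 3 without TN61K/K replicate 3 (Lbp, Myd88 and Irak4). Lbp, which carries lipopolysaccharide to CD14, stood at 28.3 ± 16.0 CPM in TN61H/H and 133 ± 77.8 CPM in TN61K/K (-2.24 ± 0.51, adjusted p = 0.0111), and it was lower against TN61R/R too (-2.15 ± 0.51, adjusted p = 0.0314). Ly96, which encodes MD-2, came to -1.04, and the adaptor genes Myd88 and Irak4 to -0.80 and -0.62. Tlr4 itself stood at -0.47 ± 0.26 (adjusted p = 0.247).

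Of 8 complement genes beside C1q, 3 were lower (median -1.15), C1ra (-1.27 ± 0.28, adjusted p = 0.0104), which encodes the C1r protease that C1q activates, C3 (-2.54 ± 0.79, adjusted p = 0.0457), the protein all complement pathways cleave, and C5ar1 (-1.45 ± 0.42, adjusted p = 0.0321), the receptor of C5a. Of 15 phagocytic and Fc receptor genes, 6 were lower (median -1.32), namely Fc receptor genes and the signalling adaptor genes Fcer1g and Tyrobp. Fcgr1 came to -1.63, Fcgr2b to -1.48, Fcgr3 to -1.55, Fcgr4 to -2.38, Tyrobp to -1.52 and Fcer1g to -1.32. Without TN61K/K replicate 3, C1ra was the complement gene that passed, and 0 of the 15 receptor genes did (median -0.59).

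Genes of monocytes were lower in 5 of 10 (median -1.57), among them Ccr2, the chemokine receptor by which monocytes leave the bone marrow, at 27.0 ± 12.8 CPM in TN61H/H and 102 ± 73.6 CPM in TN61K/K (-1.92 ± 0.43, adjusted p = 0.0106). Against TN61R/R, 1 of the 10 was lower, and Nr4a1, which patrolling monocytes need and many other cells induce early, was higher in TN61H/H (1.37 ± 0.35, adjusted p = 0.0432). Resident and perivascular macrophage genes were lower in 4 of 10 (Clec10a, Mgl2, Ccl8 and Gas6, median -1.55). Activation genes were lower in 2 of 10 (Il1b and Cd86, median -1.23), and Il1b, an inflammatory cytokine of monocytes and neutrophils, had 1.85 ± 1.27 CPM in TN61H/H and 29.1 ± 25.4 CPM in TN61K/K (-3.97 ± 0.80, adjusted p = 0.00643). Of the general macrophage genes 5 of 10 were lower, and of the lysosomal genes 2 of 10 (Lamp2 and Ctss). Without TN61K/K replicate 3, 5 genes passed from these lists, among them Spn, Ccr2, Gas6 and Il1b. No gene of these lists passed in TN61K/K or TN61L/L against TN61R/R.

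Some markers of other leukocytes were also lower in TN61H/H than in TN61K/K. All 7 pan-leukocyte markers were lower in TN61H/H than in TN61K/K (median -1.53), and 2 without TN61K/K replicate 3 (Ptprc and Coro1a, median -1.26). Their sums were 147 to 356 CPM in TN61H/H, 193 to 534 in TN61L/L, 257 to 1222 in TN61K/K and 273 to 638 in TN61R/R. Of 11 T and NK cell genes 4 were lower (Cd4 and Nkg7 without TN61K/K replicate 3), with sums of 2.84 to 24.1 CPM in TN61H/H, 14.6 to 32.2 in TN61L/L, 20.1 to 65.1 in TN61K/K and 22.05 to 60.3 in TN61R/R. Of 10 neutrophil genes tested 2 were lower (Csf3r and Mmp8, and Csf3r alone without TN61K/K replicate 3), with sums of 6.98 to 49.6 CPM in TN61H/H, 13.8 to 108 in TN61L/L, 29.8 to 114 in TN61K/K and 15.4 to 57.7 in TN61R/R. The median was -1.86 for the T and NK cell genes and -1.79 for the neutrophil genes (7 of 10 negative), beside -1.37 for the 10 macrophage and monocyte genes. No neutrophil marker in the table was at 0 in all tumours of a genotype. TN61K/K replicate 3, highest in pan-leukocyte, T cell, mast cell and vascular sums, was 8th in neutrophil markers. TN61K/K replicate 5 was 3rd in neutrophil markers and 13th in the sum of the 10 genes, and TN61R/R replicate 4 was 18th and 6th. TN61K/K replicate 1 was 1st in neutrophil markers and 3rd in Cd14, and TN61L/L replicate 6 was 2nd and 10th. TN61H/H replicate 4, with the highest Itgam of its genotype (64.8 CPM, 11th of 24), was 5th in neutrophil markers. TN61H/H replicate 1 was low in neutrophil markers and in the sum of the 10 genes, at 24th and 23rd. The part of these cells in the levels of Itgam and Cd14 was not tested.

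Against TN61R/R, TN61H/H tumours had 3 T and NK cell genes (Cd4, Nkg7 and Eomes) and 2 neutrophil genes (Csf3r and Mpo) lower, and Stab2, a scavenger receptor of sinusoidal and lymphatic endothelium (-2.71 ± 0.57, adjusted p = 0.0193). The median was -1.53 for the T and NK cell genes and -0.98 for both the pan-leukocyte and the neutrophil genes. For the 10 macrophage and monocyte genes it was -0.66. Over all lists 13 genes were lower and 1 higher in this comparison, and within the 18 libraries named with a separator 4 were lower (Cd4, Coro1a and Ccr2 among them) and 0 higher, where 0.177% of all genes were lower. Dendritic and Langerhans cell genes were lower than in TN61K/K in 1 of 8 (Cd209a), osteoclast and giant cell genes in 2 of 4 tested (Acp5 and Ctsk), lymphatic and sinusoidal endothelial genes in 1 of 4 tested (Pdpn), vascular genes in 1 of 5 (Tek) and fibroblast genes in 1 of 5 (Pdgfra). Of these, Ctsk and Pdpn passed without TN61K/K replicate 3. None of the mast cell, keratinocyte or B and plasma cell genes passed. The median of the 6 mast cell genes was -1.21 against TN61K/K and 0.34 against TN61R/R. Of 7 melanocyte genes Sox10 was higher in TN61H/H than in TN61K/K, and none passed as lower. The median log2 fold change of the 7 was -0.20 there, with 4 values negative, and -1.25 against TN61R/R, with 5 negative. The median of their summed CPM was nevertheless highest in TN61H/H (632), above TN61K/K (327) and TN61R/R (454).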

How the data were processed

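RNA from 24 ground frozen melanomas was depleted of ribosomal RNA and made into stranded libraries, although polyA RNA is the molecule in the labels. Reads were aligned with STAR per the study's methods, and Picard 2.17.11, featureCounts and the build mm10 are named in the submitters' processing notes. The deposited values are raw counts of reads for each gene in 1 table, with no normalization by the authors. Use of strand in counting and the instrument of each library were not stated in the study's text or labels.

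Groups came from the genotype in the labels. Genes with few reads were removed with filterByExpr, and 17214 were tested with edgeR 4.0.16 under R 4.3.3 by the quasi-likelihood F-test (TMM scaling, robust dispersion, 1 fit of 24 libraries, Benjamini-Hochberg adjustment over all genes tested), after the script was tested on simulated data. Adjusted p-values come from edgeR where no other tool is given. SE is that of the log2 fold change. CPM were scaled by TMM, and a prior count of 2 was added for log2 CPM. DESeq2 1.42.0, limma-voom (limma 3.58.1), other scalings, filters, covariates and left-out libraries were alternatives. The comparisons share groups, so their values are not independent. Replicate numbers follow the order of deposition and pair nothing. Whether each tumour came from its own mouse is not in the labels. The p-values then cover only variation among these samples, which may in part be technical. A pair of TN61H/H titles (replicates 4 and 5) share a number but differ in Xist, at 0.255 and 2288 CPM, and were kept apart. Titles of TN61R/R tumours carry codes of other cohorts and every other genotype its own, so title code and genotype cannot be told apart for TN61H/H.

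The 10 genes and the 22 lists of related genes were chosen with earlier results of these data known. Named genes of a list are those that passed against TN61R/R and, chosen after their values were seen, genes that passed between TN61H/H and TN61K/K or are known partners. Alternatives for single genes in TN61H/H against TN61K/K were added after seeing the data. Gene names in the promoter table were matched by symbol. Ly6g was not in the table, and Ccl21a had no read. Some genes of the lists count in their totals but are not reported here.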

Additional observations from a re-analysis of the deposited data

Results flagged for a closer look

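Within a genotype, a single tumour lay far above the other 5 in 12 of the 40 groups checked (10 genes in 4 genotypes), by the gap to the next tumour as a share of the group's range on the CPM scale. The cutoff marks about 1 in 20 groups by chance if values are normally distributed, which was not tested for CPM. The 10 genes vary together, so these are not separate events. In 9 groups the tumour was TN61K/K replicate 3, with 116 CPM of Cd68, 603 of Csf1r, 266 of Adgre1, 1547 of Mrc1, 314 of Cd163, 545 of C1qa, 606 of C1qb, 432 of C1qc and 263 of Itgam. In the other 3 it was TN61H/H replicate 4, with 53.3 CPM of Cd68, 113 of C1qc and 64.8 of Itgam. On the log2 scale 1 of the 40 groups remained, Cd68 in TN61H/H.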

How the results depend on the processing

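No paired analysis was possible because the replicate numbers follow the order of deposition and pair nothing. The count of the 10 genes called in TN61H/H against TN61K/K was 4 with limma-voom, 1 in a fit of only its 12 libraries, 2 with the naming style as a covariate and 1 within the 18 libraries named with a separator, and ran from 1 to 10 when each tumour was left out. Its median was -0.59 within the 18, and -1.59 to -0.72 with a tumour left out. DESeq2 called 1 of the 10 in TN61L/L against TN61K/K (0.232% of all genes) and 8 for any difference (8.66%). For any difference 0 of the 10 were called within the 18 (0.0627% of all genes). The median of TN61L/L against TN61K/K was -0.21 within the 18. With a tumour left out, 0 to 1 genes were called in TN61H/H against TN61R/R.

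Directions turned in 2 comparisons with no call. In TN61K/K against TN61R/R, within the 18, the median was -0.027, Csf1r -0.0093, Adgre1 -0.095, C1qa -0.044, C1qb -0.091, C1qc -0.078 and Itgam -0.084. With a tumour left out, Cd68 ran from -0.050 to 0.64, C1qb from -0.0094 to 0.81 and Itgam from -0.019 to 0.69. In TN61L/L against TN61R/R, Cd14 was 0.037 within the 18 and 0.0015 with the title code as a covariate, where Cd163 was -0.24. With a tumour left out, Cd14 ran from -0.18 to 0.085 and Cd163 from -0.00029 to 0.47. The cause of these changes was not tested.

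Over all genes, calls in TN61H/H against TN61R/R numbered 348, and 909 with DESeq2, 189 with limma-voom, 30 in the fit of 12 libraries, 683 with the style covariate, 111 within the 18 and 66 to 1093 with a tumour left out. In TN61H/H against TN61K/K they numbered 1612, and 2463, 1405, 447, 1457, 168 and 559 to 2310 in the same order. For any difference 469 genes were called, 1491 with DESeq2, 248 with limma-voom and 11 within the 18. DESeq2 called 34 genes in TN61L/L and 3 in TN61K/K against TN61R/R, 46 in TN61H/H against TN61L/L and 40 in TN61L/L against TN61K/K, where edgeR called none, and edgeR called 5 in TN61H/H against TN61L/L without TN61H/H replicate 4. How far depth limits these values was not tested.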
